A study of Homo sapiens with 4 samples.

Results

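Interferon-stimulated effector genes are the genes whose products carry out the antiviral work of interferon signalling, and 42 of them were followed here on 4 arrays of endometrial cancer cells. The members were a list of named genes, chosen with earlier results of these data known. It leaves out the sensors that detect viral nucleic acid, the IRF and STAT transcription factors and the enzymes that handle ISG15. A gene was measured where a probe set carried its symbol alone, which held for 41 of the 42 members out of 18417 genes in all. GBP1 was the exception.

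Ishikawa and HEC-1A cells received siEfp, an siRNA against Efp, or siControl, a negative control siRNA. Efp is the ubiquitin ligase encoded by TRIM25. Ishikawa cells are an ERα-positive and HEC-1A cells an ERα-negative endometrial cancer line, and both were kept in DMEM with serum. The 4 groups were therefore siEfp-treated Ishikawa, siControl-treated Ishikawa, siEfp-treated HEC-1A and siControl-treated HEC-1A cells, with 1 array each. The study's methods give the duplex siEfp #A and 48 h for the Ishikawa arrays, while for the HEC-1A arrays the sources used here give neither duplex nor time. No interferon treatment is named in the labels. With 1 array per line and siRNA, a difference within a line has no replicate error and no test.

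Interferons bind receptors at the cell surface and activate transcription factor complexes that enter the nucleus. Type I and type III interferons act mainly through a complex that binds the interferon-stimulated response element, and type II interferon through STAT dimers that bind the gamma-activated sequence. The induced proteins block virus entry, bind or cut viral RNA, deplete nucleotides, stop translation or modify proteins. Many cancer lines keep a low level of such genes without added interferon. TRIM25 itself is known as a ligase that acts on the RNA sensor RIG-I upstream of interferon production.

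The siRNA target was lower in both siEfp arrays. TRIM25 had a log2 signal of 7.96 in siEfp-treated and 9.42 in siControl-treated Ishikawa cells, a difference of -1.46. In HEC-1A cells its log2 signal was 7.93 with siEfp and 9.50 with siControl, a difference of -1.57. The epithelial markers KRT8 and KRT18 gave log2 signals of 10.85 or above on every array. On the siControl arrays 7 of the 8 epithelial markers were at least 2-fold higher in Ishikawa than HEC-1A cells, beside 7.23% of all genes. Their median signal on these arrays was 10.51 in Ishikawa and 6.79 in HEC-1A cells. Of the leukocyte markers, PTPRC stayed between 2.90 and 3.17. CD68 reached 7.26 in siEfp-treated HEC-1A cells, and NKG7 was at 5.85 or above on every array. ESR1, the gene for ERα, was at 6.65 and 6.91 on the Ishikawa arrays and at 4.77 and 4.45 on the HEC-1A arrays, with siEfp given first. CDH1, the epithelial cadherin, was at 3.74 and 4.07 on the HEC-1A arrays, below the lower quartile of all genes. None of the 6 stromal, 4 endothelial and 9 measured leukocyte markers differed 1.5-fold with siEfp in either line. Of the 8 epithelial markers, CDH1 was 1.52-fold lower and CLDN3 1.55-fold higher with siEfp in Ishikawa cells, and CLDN4 was 1.54-fold lower in HEC-1A cells. Their part in the results was not tested.

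Many members gave low signals, which limits what their probe sets can show. The median log2 signal of the members was 4.88 in siEfp-treated and 5.12 in siControl-treated Ishikawa cells, and 5.50 and 5.36 in siEfp-treated and siControl-treated HEC-1A cells. The corresponding medians of all genes lay between 6.25 and 6.34. Of the 41 members, 23 were below the median of all genes on every array. BST2, OAS2, MX2, GBP2, RSAD2, SAMD9L, IFI44, EPSTI1 and RTP4 were below the lower quartile on every array, where the RMA signal compresses differences. A low signal of a probe set is not a measure of transcript level against other genes, so the differences given further on are between arrays for 1 gene at a time.

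**Figure D1:**
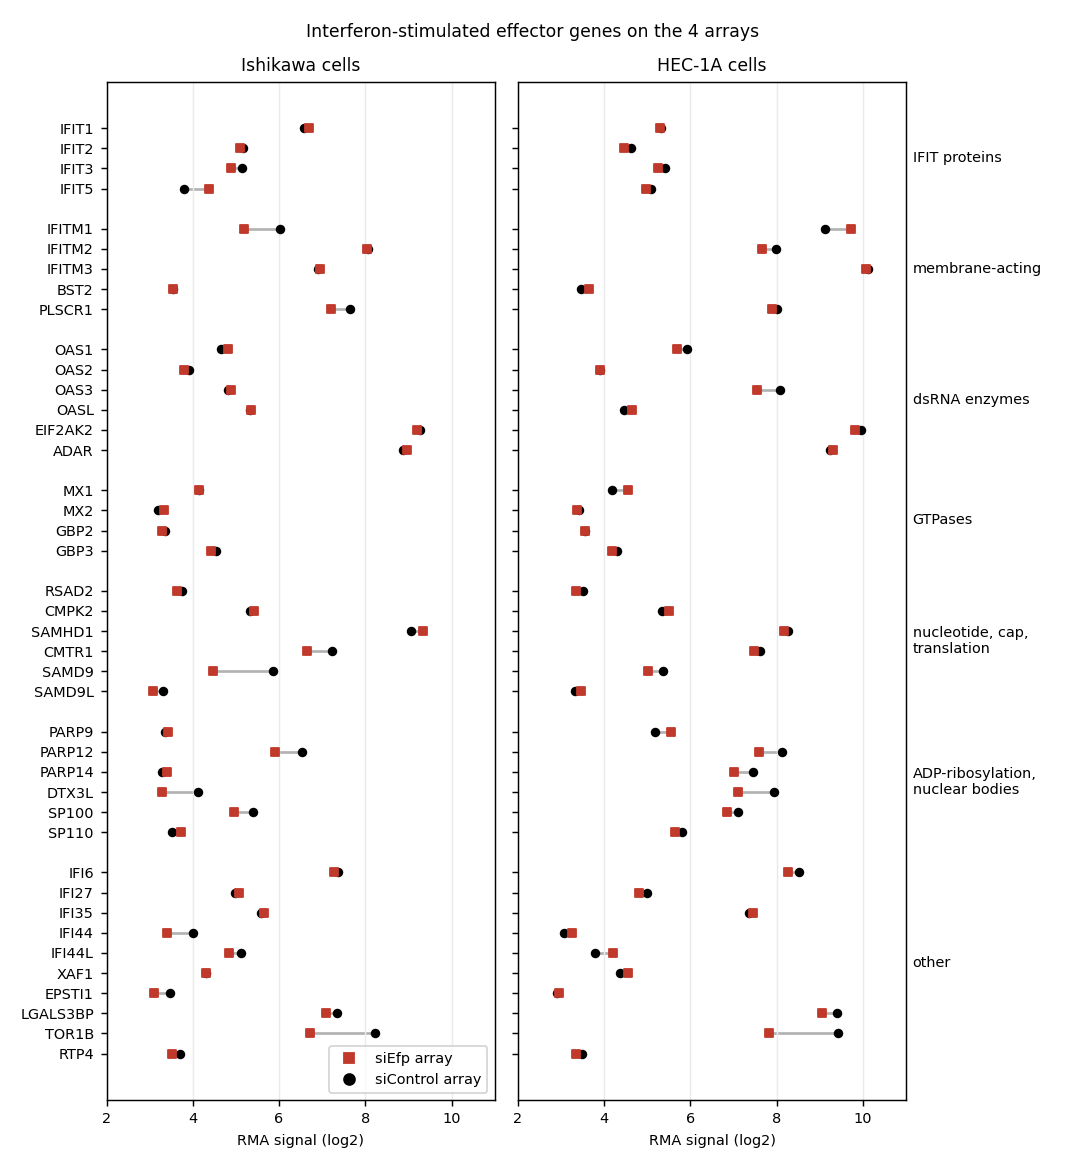
RMA log2 signals (horizontal axes) of the 41 measured effector genes in Ishikawa (left) and HEC-1A cells (right), with siEfp arrays as red squares and siControl arrays as black circles, 1 array each, ordered by role. TOR1B shows a wide gap between squares and circles in both lines, SAMD9 in Ishikawa cells, and the group of ADP-ribosylation and nuclear body genes lies further right in HEC-1A cells.

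The promoters of the members were read to show the sequences that interferon-activated factors are known to bind. RefSeq windows of 300 bases on GRCh38.p14, from 250 bases before to 50 bases after a gene's start, were found for 35 of the 42 members. The core of the response element was searched on both strands as GAAA, any 2 bases (NN) and GAAA. It was present in 30 of the members' 50 windows (60.0%), beside 3.57% of all 35116 promoter windows, and these 30 belong to 25 of the 35 members. The gamma-activated sequence TTCNNNGAA, which reads the same on both strands, was present in 13 of the 50 windows (26.0%), of 11 members, beside 7.66% of all windows. Among the members with the core, 13 had it at 1 position and 12 at more. The members were listed as interferon-induced genes, so these shares describe the list, and a match does not show that a factor was bound here.

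**Figure D2:**
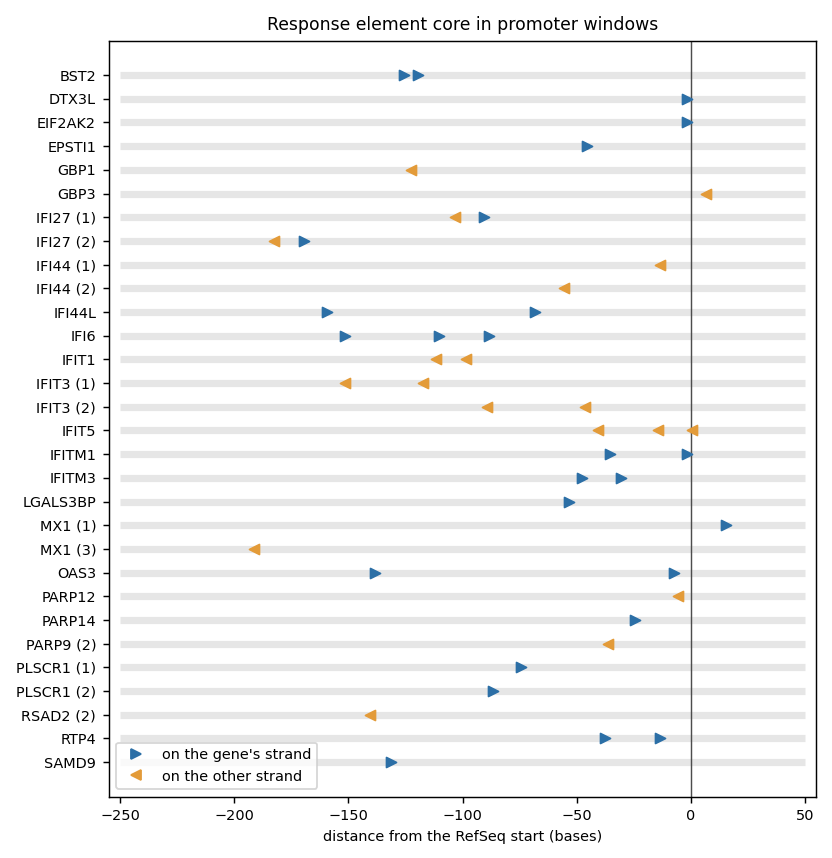
Position of the response element core in the RefSeq promoter windows of the members that hold it, as the distance from the start in bases. Blue triangles pointing right are matches on the gene's strand, orange triangles pointing left are matches on the other strand, grey bars are the windows, and a number in brackets tells several windows of 1 gene apart.

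With siEfp, a few effector genes were lower while the group as a whole moved little. In Ishikawa cells 26 members (63.4%, beside 47.6% of all genes) were lower and 15 higher with siEfp, with a median log2 difference of -0.07 against 0.01 over all genes. At least 2-fold lower signals were found for SAMD9 and TOR1B, 2 of 41 members (4.88%) beside 0.804% of all genes. At 1.5-fold, IFITM1, PARP12, DTX3L and IFI44 joined them, so that 6 of 41 (14.6%) were lower beside 3.72% of all genes. IFIT5 alone was 1.5-fold higher, or 2.44% of the members beside 1.49% of all genes, and 0 members were 2-fold higher beside 0.136%. In bulk RNA, less RNA per cell and fewer cells expressing a gene cannot be told apart.

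In HEC-1A cells 27 members (65.9%, beside 47.7% of all genes) were lower and 14 higher with siEfp, with a median log2 difference of -0.12 against 0.01 over all genes. TOR1B was the 1 member at least 2-fold lower (2.44%, beside 0.271% of all genes). DTX3L joined it at 1.5-fold, which makes 2 of 41 (4.88%) beside 2.04%. The 1 member at least 1.5-fold higher was IFITM1 (2.44%, beside 1.34%), and 0 members were 2-fold higher beside 0.103% of all genes. The counts at these folds are small, and no test compares them with the background. The list was also chosen with earlier results of these data known.

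Across both lines 17 of 41 members (41.5%) were lower with siEfp in each, beside 26.7% of all genes, and 5 (12.2%) were higher in each, beside 31.1% of all genes. TOR1B and DTX3L were the 2 members (4.88%) at least 1.5-fold lower in both, beside 0.961% of all genes. Over the 41 members, the differences in the 2 lines had a Pearson r of 0.42 and a Spearman rho of 0.15. Over all genes r was 0.33 and rho 0.24. These are correlations across genes, which share the 4 arrays and are not independent. Leaving out TOR1B, chosen after its values were seen, r became 0.14 over 40 members, so the relation rested on that gene.

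**Figure D3:**
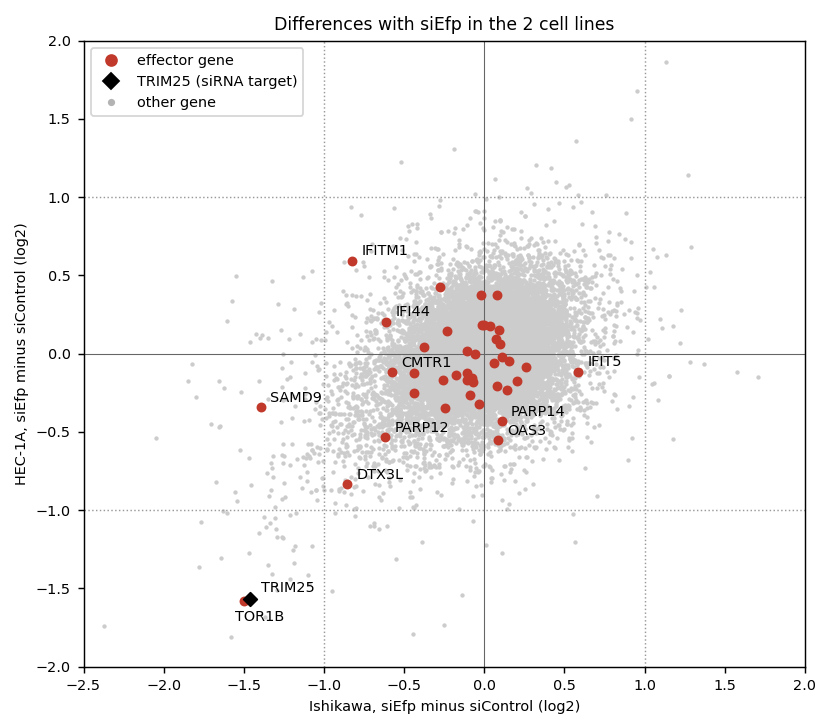
Log2 difference, siEfp minus siControl, in Ishikawa cells (horizontal axis) and HEC-1A cells (vertical axis), with the effector genes in red, TRIM25 as a black diamond, other genes in grey and dotted lines at a 2-fold difference. TOR1B lies beside TRIM25, DTX3L is lower in both lines, SAMD9 lies far left, and IFITM1 is lower in Ishikawa and higher in HEC-1A cells.

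More effector genes were 2-fold apart between the cell lines than between siEfp-treated and siControl-treated cells of a line. On the siControl arrays 15 of 41 members (36.6%) were at least 2-fold lower in Ishikawa than in HEC-1A cells, beside 4.99% of all genes. IFI44L and IFIT1 were at least 2-fold higher, or 4.88% of the members beside 7.23%. On the siEfp arrays 12 members (29.3%) were 2-fold lower in Ishikawa cells beside 5.88%, and IFIT1 and SAMHD1 (4.88%) were 2-fold higher beside 6.71%. The same 12 of 41 members were 2-fold lower on both pairs of arrays, beside 726 of 18417 genes. The median log2 difference of the members was -0.38 on the siEfp and -0.23 on the siControl arrays. The line difference and the siEfp difference are made from the same arrays and are given side by side without a correlation.

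**Figure D4:**
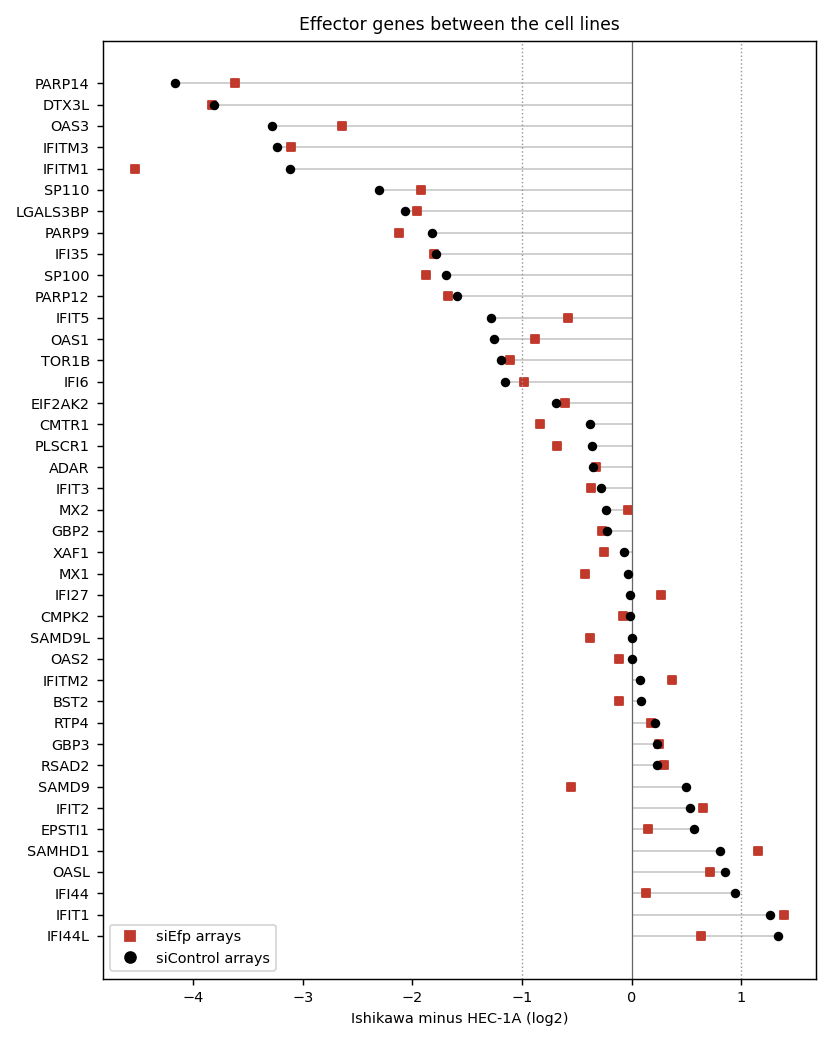
Log2 difference, Ishikawa minus HEC-1A (horizontal axis), of each measured member on the siEfp arrays (red squares) and the siControl arrays (black circles), with dotted lines at a 2-fold difference. PARP14, DTX3L, OAS3, IFITM3 and IFITM1 were furthest to the left, and the siEfp and siControl values of IFITM1 lie furthest apart.

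A limma model with cell line and siRNA as terms took in all 4 arrays, with Benjamini-Hochberg adjustment over all 18417 genes and calls at an adjusted p under 0.05. For siEfp this takes the lines as replicates of 1 effect. The fit called 1 member lower (2.44%, beside 0.157% of all genes) and 0 members higher (beside 0.00543%). That member was TOR1B. After a second quantile normalization, or without the cell line term, 0 genes in all were called for siEfp. At an unadjusted p under 0.05, 6 members (14.6%) were lower and 0 higher, beside 6.79% of all genes lower and 5.19% higher. For the line term, with the siEfp and siControl arrays of a line as its replicates, the fit called 18 members lower in Ishikawa cells (43.9%, beside 18.3% of all genes) and 5 higher (12.2%, beside 17.0%). The fit has 1 residual degree of freedom, so its standard errors lean on the spread shared by all genes.

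The IFIT proteins bind viral RNA through its unusual end, and IFIT1 in particular recognises RNA that lacks cap methylation. IFIT1 had a log2 signal of 6.70 in siEfp-treated and 6.58 in siControl-treated Ishikawa cells, and of 5.30 and 5.32 in siEfp-treated and siControl-treated HEC-1A cells. It was higher in Ishikawa than in HEC-1A cells on both pairs of arrays (limma log2 difference 1.33, SE 0.123, adjusted p = 0.000355). IFIT2, which pairs with other IFIT proteins and is linked to cell death, had log2 signals of 5.10 and 5.17 in siEfp-treated and siControl-treated Ishikawa cells, and of 4.45 and 4.63 in the HEC-1A cells. The signals of IFIT3, a partner that stabilises IFIT1, were 4.88 with siEfp and 5.14 with siControl in Ishikawa cells, and 5.25 and 5.42 in HEC-1A cells. For these 3 genes siEfp-treated and siControl-treated cells of a line differed by at most 0.26.

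IFIT5, which binds RNA ends bearing phosphates, was the member furthest up with siEfp in Ishikawa cells. Its log2 signal was 4.38 with siEfp and 3.80 with siControl in Ishikawa cells, a difference of 0.59. In HEC-1A cells it was 4.97 with siEfp and 5.08 with siControl, a difference of -0.11. The SD of the differences of the 500 genes nearest in mean signal was 0.241 in Ishikawa cells. Both Ishikawa signals were below both HEC-1A signals and below the lower quartile of all genes, where differences are compressed. The promoter stretch of IFIT5 (chr10:89414418-89414577 on the plus strand) is shown from 150 bases before to 10 bases after the start, as are those given further on. Capitals mark the response element core, which reads as TTTC, NN, TTTC where it lies on the other strand, here at 3 places close to the start.
IFIT5: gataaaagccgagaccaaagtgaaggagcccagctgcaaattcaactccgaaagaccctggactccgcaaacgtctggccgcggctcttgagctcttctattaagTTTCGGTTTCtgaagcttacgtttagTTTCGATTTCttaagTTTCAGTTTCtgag

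The membrane-acting members stop viruses at entry or exit, and their largest values were line differences. IFITM1, which acts mainly at the plasma membrane, had a log2 signal of 5.19 with siEfp and 6.01 with siControl in Ishikawa cells, a difference of -0.82. In HEC-1A cells its log2 signal was 9.72 with siEfp and 9.13 with siControl, a difference of 0.59. It was thus lower with siEfp in the line where it was dim and higher in the line where it was bright, and the difference between the lines was not tested. IFITM3, which acts in endosomes, had signals of 6.95 and 6.89 in siEfp-treated and siControl-treated Ishikawa cells, and of 10.06 and 10.13 in the HEC-1A cells. Its differences with siEfp were 0.06 and -0.06. IFITM2, the third of this family here, was at 8.04 and 8.07 in siEfp-treated and siControl-treated Ishikawa cells, and at 7.67 and 7.99 in the HEC-1A cells.

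The line differences of this family were therefore uneven. On the siControl arrays IFITM1 was 8.67-fold and IFITM3 9.40-fold lower in Ishikawa than in HEC-1A cells, while IFITM2 differed by 0.08 on the log2 scale. limma gave adjusted p-values of 0.000179 for IFITM1, 1.13e-05 for IFITM3 and 0.252 for IFITM2. The genes of the family are near copies of each other, and probes may take up transcripts of a relative. BST2, or tetherin, which holds budding virions at the cell surface, was between 3.46 and 3.64 on all arrays. PLSCR1, a phospholipid scramblase, was at 7.21 and 7.65 in siEfp-treated and siControl-treated Ishikawa cells, and at 7.88 and 8.01 in the HEC-1A cells. The promoters of IFITM1 (chr11:313890-314049 on the plus strand) and IFITM3 (chr11:320851-321010 on the minus strand) are set side by side because these neighbours differed alike between the lines and unlike with siEfp. Each holds the core at 2 places.
IFITM1: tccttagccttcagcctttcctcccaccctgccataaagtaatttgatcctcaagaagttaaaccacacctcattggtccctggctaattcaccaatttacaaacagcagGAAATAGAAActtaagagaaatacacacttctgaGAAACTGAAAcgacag
IFITM3: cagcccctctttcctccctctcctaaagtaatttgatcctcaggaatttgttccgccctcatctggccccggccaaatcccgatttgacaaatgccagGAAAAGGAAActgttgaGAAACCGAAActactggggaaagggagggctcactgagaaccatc

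Among the 6 enzymes activated by double-stranded RNA and their relatives, 0 differed 1.5-fold with siEfp in either line. Of all genes 3.72% were 1.5-fold lower and 1.49% higher in Ishikawa cells, and 2.04% and 1.34% in HEC-1A cells. With shares this small, 0 of 6 does not set the group apart. OAS3, an oligoadenylate synthetase that switches on RNase L, came closest to 1.5-fold. Its log2 signal was 4.89 with siEfp and 4.81 with siControl in Ishikawa cells, and 7.53 with siEfp and 8.09 with siControl in HEC-1A cells, a difference of -0.55. Both Ishikawa signals were far below both HEC-1A signals, with a limma line difference of -2.96 (SE 0.174, adjusted p = 4.86e-05). OAS1, a smaller synthetase, was at 4.81 and 4.66 in siEfp-treated and siControl-treated Ishikawa cells, and at 5.68 and 5.92 in the HEC-1A cells. OAS2, the third synthetase, stayed between 3.79 and 3.91 on all arrays.

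OASL, a relative without synthetase activity that enhances RIG-I signalling, ran the other way between the lines. Its signals were 5.35 and 5.32 in siEfp-treated and siControl-treated Ishikawa cells, and 4.64 and 4.46 in the HEC-1A cells. EIF2AK2, or PKR, a kinase that stops translation, was at 9.20 and 9.27 in siEfp-treated and siControl-treated Ishikawa cells, and at 9.81 and 9.96 in the HEC-1A cells, and limma called it lower in Ishikawa cells (adjusted p = 0.00667). ADAR, which edits adenosine to inosine in RNA, differed by 0.10 and 0.06 with siEfp in Ishikawa and HEC-1A cells. The promoter of OAS3 (chr12:112938324-112938483 on the plus strand) holds the core at 2 places on its own strand.
OAS3: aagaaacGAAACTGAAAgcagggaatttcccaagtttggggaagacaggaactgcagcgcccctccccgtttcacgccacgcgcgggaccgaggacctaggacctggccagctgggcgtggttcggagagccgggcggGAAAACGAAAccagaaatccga

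The GTPases among the members include the dynamin-like MX proteins, which trap viral nucleocapsids, and the guanylate-binding proteins, which coat membranes of pathogens. MX1 had log2 signals of 4.13 and 4.15 in siEfp-treated and siControl-treated Ishikawa cells, and of 4.56 and 4.18 in the HEC-1A cells, where the difference was 0.38. MX2 was at 3.34 and 3.19 in siEfp-treated and siControl-treated Ishikawa cells, and at 3.37 and 3.42 in the HEC-1A cells. GBP2 stayed between 3.29 and 3.56 on all arrays. GBP3 was at 4.43 and 4.54 in siEfp-treated and siControl-treated Ishikawa cells, and at 4.18 and 4.31 in the HEC-1A cells. The 4 measured GTPases had no difference of 1.5-fold with siEfp. Of all genes 3.72% were 1.5-fold lower and 1.49% higher in Ishikawa cells, and 2.04% and 1.34% in HEC-1A cells. Between the lines limma called 0 of the 4, beside 18.3% of all genes called lower and 17.0% higher in Ishikawa cells. MX2 and GBP2 were below the lower quartile of all genes on every array, where differences are compressed. These counts therefore say little about the GTPases. GBP1 shares its only probe set with GBP3 and a pseudogene, and that probe set was at 4.48 and 5.35 in siEfp-treated and siControl-treated Ishikawa cells, and at 4.86 and 5.02 in the HEC-1A cells. Its difference of -0.87 in Ishikawa cells cannot be given to 1 gene, and GBP3's own probe set differed by -0.11.

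SAMD9 stood out among the members that restrict nucleotides, caps or translation. This cytoplasmic protein halts translation in cells infected with poxviruses. Its log2 signal was 4.46 with siEfp and 5.85 with siControl in Ishikawa cells, a difference of -1.40 or 2.63-fold, rank 35 from the lowest of 18417 genes. In HEC-1A cells it was 5.01 with siEfp and 5.36 with siControl, a difference of -0.34. The SD of nearby genes' differences was 0.295 in Ishikawa and 0.239 in HEC-1A cells. limma over both lines gave -0.87 (SE 0.238) with an adjusted p of 0.237. Its paralog SAMD9L, the next gene on chromosome 7, was at 3.08 and 3.32 in siEfp-treated and siControl-treated Ishikawa cells, and at 3.46 and 3.32 in the HEC-1A cells. The promoter of SAMD9 (chr7:93117970-93118129 on the minus strand) holds 1 core.
SAMD9: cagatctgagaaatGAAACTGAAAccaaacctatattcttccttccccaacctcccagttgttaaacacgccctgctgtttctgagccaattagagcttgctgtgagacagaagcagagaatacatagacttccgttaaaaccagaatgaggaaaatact

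The other members of this group changed less. CMTR1, which methylates the mRNA cap, was at 6.65 with siEfp and 7.22 with siControl in Ishikawa cells, and at 7.48 and 7.60 in siEfp-treated and siControl-treated HEC-1A cells. SAMHD1, which breaks down the nucleotides that reverse transcription needs, had log2 signals of 9.33 and 9.07 in siEfp-treated and siControl-treated Ishikawa cells, and of 8.17 and 8.26 in the HEC-1A cells. It was among the 5 members called higher in Ishikawa cells (limma log2 difference 0.98, SE 0.138, adjusted p = 0.00206). RSAD2, or viperin, which makes a chain-terminating nucleotide, differed by -0.11 and -0.17 with siEfp in Ishikawa and HEC-1A cells. CMPK2, the mitochondrial nucleotide kinase beside it on chromosome 2, differed by 0.09 and 0.15.

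The 6 genes of ADP-ribosylation and nuclear bodies were the 1 role group in which every member was at least 2-fold apart between the lines. All 6 were at least 2-fold lower in Ishikawa than in HEC-1A cells on the siEfp arrays (beside 5.88% of all genes) and the siControl arrays (beside 4.99%). The median log2 differences were -2.02 and -2.06. limma called all 6 lower in Ishikawa cells, beside 18.3% of all genes. PARP14, a mono-ADP-ribosyltransferase, had log2 signals of 3.39 and 3.28 in siEfp-treated and siControl-treated Ishikawa cells, and of 7.01 and 7.44 in the HEC-1A cells. It was lower in Ishikawa cells on both pairs of arrays (limma log2 difference -3.89, SE 0.160, adjusted p = 1.31e-05). PARP9, PARP14, DTX3L and SP110 were below the lower quartile of all genes on both Ishikawa arrays, so the sizes of their line differences may be understated. With siEfp it differed by 0.11 in Ishikawa cells, where differences of so dim a probe set are compressed, and by -0.43 in HEC-1A cells.

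DTX3L, the ubiquitin ligase that works as a pair with PARP9, was lower with siEfp in both lines. It had a log2 signal of 3.27 with siEfp and 4.13 with siControl in Ishikawa cells, a difference of -0.85. In HEC-1A cells its log2 signal was 7.11 with siEfp and 7.94 with siControl, a difference of -0.83. Both Ishikawa signals were below the lower quartile of all genes, so the size of the Ishikawa difference may be understated and is not compared with that in HEC-1A cells. limma gave -0.84 (SE 0.120) with an adjusted p of 0.0769, which did not pass the threshold. PARP9, its partner, was at 3.44 and 3.36 in siEfp-treated and siControl-treated Ishikawa cells, and at 5.56 and 5.18 in the HEC-1A cells. It was thus higher by 0.08 and 0.37 on the arrays on which DTX3L was lower.

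PARP12, a mono-ADP-ribosyltransferase that restricts several RNA viruses, was at 5.91 with siEfp and 6.53 with siControl in Ishikawa cells, a difference of -0.62. In HEC-1A cells its signals were 7.58 and 8.12 with siEfp and siControl, a difference of -0.53, and the adjusted p of limma over both lines was 0.163. SP100, a scaffold of PML nuclear bodies, had log2 signals of 4.96 and 5.40 in siEfp-treated and siControl-treated Ishikawa cells, and of 6.84 and 7.09 in the HEC-1A cells. SP110, its relative, was at 3.72 and 3.51 in siEfp-treated and siControl-treated Ishikawa cells, and at 5.64 and 5.81 in the HEC-1A cells. Both were low in Ishikawa cells whichever siRNA was given. PARP9 and DTX3L start back to back on chromosome 3, and 1 core at chr3:122564332-122564341 lies in the windows of both, with its first base 6 bases before the start of DTX3L and 41 bases before that of PARP9. The promoters of DTX3L (chr3:122564188-122564347 on the plus strand), PARP14 (chr3:122680689-122680848 on the plus strand) and PARP12 (chr7:140062942-140063101 on the minus strand) each hold 1 core near the start.
DTX3L: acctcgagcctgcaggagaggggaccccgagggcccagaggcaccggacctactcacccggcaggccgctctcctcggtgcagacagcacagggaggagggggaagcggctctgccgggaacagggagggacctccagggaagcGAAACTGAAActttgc
PARP14: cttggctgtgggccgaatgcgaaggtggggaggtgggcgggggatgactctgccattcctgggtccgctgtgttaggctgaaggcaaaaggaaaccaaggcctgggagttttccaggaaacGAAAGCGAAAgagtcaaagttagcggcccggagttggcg
PARP12: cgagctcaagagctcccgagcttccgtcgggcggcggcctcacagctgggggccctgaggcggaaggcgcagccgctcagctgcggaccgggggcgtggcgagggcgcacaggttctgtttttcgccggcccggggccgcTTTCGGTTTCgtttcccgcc

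TOR1B fell with siEfp in both lines and was the 1 member called. It encodes a torsin, an ATPase of the endoplasmic reticulum and nuclear envelope that is induced by interferon. Its log2 signal was 6.72 with siEfp and 8.22 with siControl in Ishikawa cells, 2.83-fold lower. In HEC-1A cells it was 7.83 with siEfp and 9.41 with siControl, a difference of -1.58 on the log2 scale. These differences were as large as those of TRIM25 and had ranks 25 and 6 from the lowest of all genes. limma gave -1.54 (SE 0.121, adjusted p = 0.0342), the same adjusted p as for TRIM25, and after a second quantile normalization the adjusted p was 0.0708. The SD of nearby genes' differences was 0.331 in Ishikawa and 0.296 in HEC-1A cells.

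Among the remaining members, IFI44 and IFI44L lie next to each other on chromosome 1 and were both lower in Ishikawa and higher in HEC-1A cells with siEfp. IFI44 was at 3.40 with siEfp and 4.01 with siControl in Ishikawa cells, a difference of -0.61, and at 3.26 and 3.06 in siEfp-treated and siControl-treated HEC-1A cells. IFI44L was at 4.84 and 5.12 in siEfp-treated and siControl-treated Ishikawa cells, and at 4.21 and 3.78 in the HEC-1A cells, where the difference was 0.43. IFI44L was thus called higher in Ishikawa cells (limma log2 difference 0.98, SE 0.182, adjusted p = 0.00656), by less on the siEfp arrays (0.63) than on the siControl arrays (1.33).

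LGALS3BP, a secreted galectin-binding glycoprotein, was at 7.09 and 7.34 in siEfp-treated and siControl-treated Ishikawa cells, and at 9.05 and 9.40 in the HEC-1A cells. IFI35, a partner of the interferon-induced protein NMI, was at 5.65 and 5.58 in siEfp-treated and siControl-treated Ishikawa cells, and at 7.45 and 7.36 in the HEC-1A cells. Both were lower in Ishikawa cells, with limma adjusted p-values of 5.6e-05 and 8.69e-05. IFI6, a small membrane protein that protects from cell death, was at 7.27 and 7.36 in siEfp-treated and siControl-treated Ishikawa cells, and at 8.25 and 8.52 in the HEC-1A cells. IFI27 of the same family, XAF1, an antagonist of the apoptosis inhibitor XIAP, EPSTI1 and RTP4, a chaperone of receptor transport, had siEfp differences between -0.38 and 0.18.

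Members that neighbour each other on a chromosome were compared for their direction with siEfp. Of 16 neighbouring pairs 14 had both genes measured, and the direction was shared in 6 of them in Ishikawa and in 7 in HEC-1A cells. Between the lines on the siControl arrays the direction was shared in 7 pairs. Some pairs have a gene in common, and the share for neighbouring pairs over all genes was not computed. The counts therefore cannot show whether neighbours moved together. Some of these directions rest on small differences, since that of IFITM2 in Ishikawa and of OAS2 in HEC-1A cells turned after a second quantile normalization, and those of MX1 and CMPK2 between the lines after median centring. SAMD9 and SAMD9L, IFITM1 and its neighbours, and DTX3L with PARP9 and PARP14 had unlike differences within a cluster. In HEC-1A cells, however, DTX3L and PARP14 were both lower, at -0.83 and -0.43. SAMD9L was below the lower quartile of all genes on every array, and PARP9 and PARP14 on both Ishikawa arrays. A lower level of these neighbours could have gone unseen there. In the 24 measured members with a core in a window the median siEfp difference was -0.11 for Ishikawa and -0.13 for HEC-1A cells, and in the 10 with a window and no match it was 0.08 and -0.01. The sets overlapped, from -1.40 to 0.59 and from -0.57 to 0.26 in Ishikawa cells. In HEC-1A cells they ran from -0.83 to 0.59 and from -0.25 to 0.18. Whether the sets differ was not tested. TOR1B had no window and is in neither set.

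**Figure D5:**
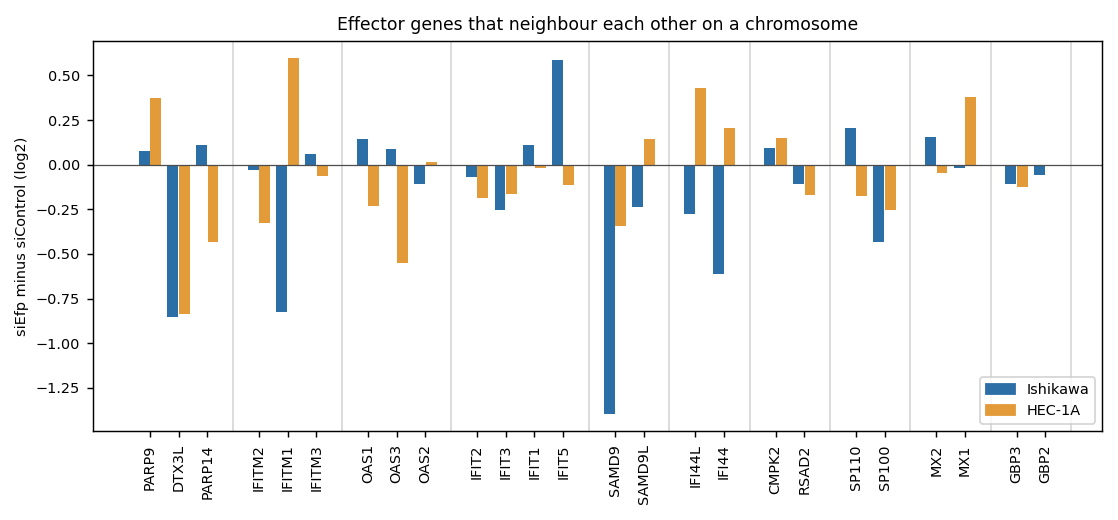
Log2 difference, siEfp minus siControl (vertical axis), of effector genes that neighbour each other on a chromosome, with Ishikawa cells in blue and HEC-1A cells in orange and 1 array per line and siRNA. Vertical lines separate the clusters. SAMD9 and IFIT5 stand apart from their neighbours in Ishikawa cells, and IFITM1 in both lines. DTX3L stands apart from PARP9 in both lines, while PARP14 was also lower in HEC-1A cells. SAMD9L was below the lower quartile of all genes on every array, and PARP9 and PARP14 on both Ishikawa arrays.

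The rest of the interferon pathway was read from further lists. With siEfp, 3.72% of all genes were 1.5-fold lower and 1.49% higher in Ishikawa cells, and 2.04% and 1.34% in HEC-1A cells. Of 9 measured interferon ligands 0 differed 1.5-fold with siEfp in either line. IFNA2, IFNB1, IFNE, IFNK, IFNW1 and IFNG were below the lower quartile of all genes on every array, where differences are compressed. Among 9 receptor chains and kinases IL10RB, a receptor chain for type III interferon and interleukin-10 family cytokines, fell in both lines. Its log2 signal was 6.31 with siEfp and 7.66 with siControl in Ishikawa cells, and 7.51 with siEfp and 8.62 with siControl in HEC-1A cells (limma log2 difference -1.24, SE 0.130, adjusted p = 0.0377). IFNAR2, a chain of the type I receptor, differed by -0.37 and -0.64 in Ishikawa and HEC-1A cells. IL10RB was the 1 gene of these lists that limma called for siEfp.

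Of 8 measured IRF and STAT factors, IRF1, a transcription factor that drives many of the members, was at least 1.5-fold lower in both lines, at -0.79 for Ishikawa and -0.76 for HEC-1A cells, with an adjusted p of 0.1001. MYD88, an adaptor of Toll-like receptors, was the 1 of 13 sensors and adaptors at 1.5-fold, with -1.35 in Ishikawa and 0.10 in HEC-1A cells. Among ISG15 and its enzymes, 6 genes, HERC5, the main ISG15 ligase, differed by 0.72 for Ishikawa and 0.35 for HEC-1A cells, and its relative HERC6 by 0.04 and -0.82. None of 5 negative feedback genes reached 1.5-fold. Of 33 other interferon-induced genes, TRIM21, an antibody receptor and ubiquitin ligase, was the 1 at 1.5-fold, with -0.65 in Ishikawa and -0.94 in HEC-1A cells.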

How the data were processed

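Total RNA of 4 samples was measured on Affymetrix arrays, 1 each for siEfp-treated and siControl-treated Ishikawa and HEC-1A cells. The values that the authors deposited are log2 signals of probe sets. The submitters' processing notes name Affymetrix Expression Console and RMA, while versions and the genome build were not given in these sources. RMA gives the probe intensities of every array the same distribution before they are summarised, so a shift common to all genes would be lost. The summarised signals still differed slightly, with medians over genes between 6.25 and 6.34. Differences of dim probe sets are compressed. The study's methods and the numbering of the probe sets point to different array types of the same maker. Over probe sets, Pearson r was 0.992 and 0.993 within a line, and 0.956 to 0.958 between lines. The number of arrays limits the precision.

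Of 33297 probe sets, 19460 carried 1 gene symbol, 1754 several and 12083 none, and those with 1 symbol were averaged per gene. Differences were counted at 2-fold, with 1.5-fold as an alternative. limma 3.58.1 in R 4.3.3 was fitted with lmFit and eBayes over all genes, and other steps used Python 3.11.15, pandas 2.3.3 and matplotlib 3.10.9. The limma step was also run on data simulated under its own assumptions, with the fitted spread and the same siEfp change in both lines. That run checks the code and cannot test the calls on these arrays. Promoter windows are from RefSeq (GRCh38.p14), as are gene orders. Signals on every array are given for members at least 1.5-fold different with siEfp in a line, members called by limma, the 5 furthest apart between the siControl arrays each way, gene families and the highest and lowest of a role group, as values or a range, and for up to 4 genes of each pathway list the differences at 1.5-fold. The members and lists were chosen with earlier results of these data known.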

Additional observations from a re-analysis of the deposited data

Results flagged for a closer look

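IFITM1 had opposite directions in the lines, with a log2 difference, siEfp minus siControl, of -0.82 for Ishikawa and 0.59 for HEC-1A cells. Each direction rests on 1 array per siRNA, and the difference between the lines was not tested.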

How the results depend on the processing

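Of 411 single member values recomputed under the alternatives, 410 moved by at most 0.1 on the log2 scale and 1 by more, that of GBP2 between the lines (-0.37 with its brightest probe set). The sign changed in 5 of them, all of 0.04 or less before and after: IFITM2 in Ishikawa and OAS2 in HEC-1A cells after a second quantile normalization, and MX1, CMPK2 and IFI27 between the lines after median centring. At 1.5-fold the members lower with siEfp numbered 6 for Ishikawa and 2 for HEC-1A cells, with 1 higher for each line. The members at 1.5-fold higher in Ishikawa than in HEC-1A cells on the siControl arrays numbered 5 of 41, beside 2439 of 18417 genes. Leaving out genes whose mean signal over the 4 arrays was below the median removed 27 of the 41 members. Of those kept, 1 was 2-fold lower with siEfp in Ishikawa cells. Between the lines 8 of those kept were 2-fold lower in Ishikawa cells and 0 higher, with a median of -1.17. This filter can keep a member that was bright in 1 line only, as IFITM1 was in HEC-1A cells. That median is therefore not compared with the one over all 41 members. As a mean in place of a median, the members differed by -0.18 with siEfp in Ishikawa cells and by -0.70 between the lines. With the siEfp arrays, added after seeing the data, the median between the lines was -0.38. The siEfp calls of limma depended on the settings, and the cause was not tested. Members called were 1 in the reported fit, 0 after a second quantile normalization, 2 without dim genes (PARP12 added, adjusted p = 0.0169), 2 with an intensity trend (DTX3L added, 0.0487), 0 without the cell line term and 2 at an adjusted p under 0.1. Over all genes the calls were 30, 0, 615, 182 and 0 in the first 5 of these settings. The adjusted p of TOR1B ranged between 8.37e-05 and 1 over the alternatives and was 0.0708 after the second normalization. The line term called 13 of the members that the same filter kept, beside 5317 of 9209 genes. Leaving out an array leaves no difference within its line, so that was not run. The depth of signal limits the 9 members below the lower quartile on every array.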

Other observations

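The interferon-induced genes outside the effector list also differed between the lines. Of 33 measured, 23 (69.7%, beside 53.3% of all genes) were lower and 10 higher in Ishikawa than in HEC-1A cells on the siControl arrays, with a median log2 difference of -0.33, and limma called 15 lower (45.5%, beside 18.3% of all genes) and 2 higher (6.06%, beside 17.0%) over both siRNAs. IFNE, an interferon of epithelial tissue, was the 1 ligand of 9 that the line term called (adjusted p = 0.000467). Its log2 signal was 2.86 on both Ishikawa arrays, and 4.37 and 4.06 in siEfp-treated and siControl-treated HEC-1A cells, all below the lower quartile of all genes, so no size is given.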
